A study of Mus musculus with 17 samples.

Results

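Genes of chromatin remodelers, coactivators and histone-modifying enzymes, 9 in all, were examined for the histone variant H3.3 in the newborn mouse lens: Smarca4, Smarca5, Chd4, Chd7, Crebbp, Ep300, Ncoa6, Hdac1 and Ezh2. They were chosen by name for what their proteins do, by a rule that uses no measured value though with earlier results of these data known, and make up 9 of 21938 protein-coding genes in the GENCODE M21 annotation of GRCm38 (mm10). For each gene the window was its annotated body and 5 kb on each side.

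H3.3 ChIP-seq was performed on microdissected lens epithelium and lens fibers of CD1 mice, an outbred stock, with 2 biological replicates in each compartment and no genetic change or treatment in either. The sample titles give day 1 after birth and the protocol in the labels P0.5, with 150 pooled lenses in each sample, a number that differs from the published methods, so that a library averages many animals and all cells of its compartment. The series also holds bisulfite libraries and a pooled input, which were not analysed here. For each library separately, the authors called islands (stretches enriched in ChIP reads) and deposited the position of each island with its count of reads.

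H3.3 is a variant of histone H3 that is placed into nucleosomes throughout the cell cycle, at active promoters, enhancers and transcribed gene bodies, whereas canonical H3 is placed during DNA replication. The enzymes encoded by these 9 genes act on nucleosomes: the SWI/SNF, ISWI and CHD ATPases move, space or evict them, CBP and p300 acetylate histones at enhancers and promoters, and HDAC1 and EZH2 remove acetyl groups and methylate lysine 27 of histone H3. In the lens, epithelial cells at the equator leave the cell cycle and differentiate into fibers, which elongate, fill with crystallins and later lose their nuclei, and Smarca4 (Brg1) and Smarca5 (Snf2h) are known to be needed for that differentiation.

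Islands covered more of all 9 genes in both fiber libraries than in either epithelium library. The smallest gaps were those of Smarca5 and Ncoa6 and the widest that of Chd7, where coverage averaged 5.29% of the window in epithelium and 74.2% in fibers. Summed over the windows, islands covered 53.6 and 50.2 kb in the epithelium libraries, replicate 1 first, and 344 and 308 kb in the fiber libraries, or 6.66%, 6.23%, 42.7% and 38.2% of the sequence. The fiber to epithelium ratio of these sums was 6.28, against 3.61 for the windows of all protein-coding genes, and Chd7 alone gave 42.6% of the members' covered bases in fibers.

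The fiber libraries held more islands altogether, and counts of the 9 genes are therefore read beside the same count over all genes. There were 10389 and 14434 islands in the epithelium libraries and 27059 and 35940 in the fiber libraries, with 1331369 and 1430373 reads in those of epithelium and 5041885 and 5359085 in those of fibers, which are not sequencing depths. The median density was near 28 reads per kb of island in every library, between 27.4 and 28.3. All 7 fiber markers (among them Mip, Bfsp1 and Lim2) had body islands in both fiber libraries, and 3 and 4 had them in epithelium, whereas 4 and 5 of 6 epithelium markers had them in epithelium and 5 and 6 in fibers. Of all 21938 protein-coding genes, 10550 had a body island in both fiber libraries and 4341, or 19.8%, in both epithelium libraries. The median body coverage of the epithelium markers was 12.1% and 43.9% in epithelium and 68.0% and 66.9% in fibers, so that islands at these markers were not limited to the compartment they mark. Markers of other tissues had body islands in 1 or 2 of 6 vascular and blood genes in each library, in up to 1 of 5 retina and pigment epithelium genes and in up to 1 of 3 cornea genes, with Kdr, Ptprc, Hbb-bs, Crx, Nrl, Rpe65, Tyr and Krt12 at 0 in every library. In these pooled tissues, a mark in more cells and a mark at higher level in each cell cannot be told apart.

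**Figure D1:**
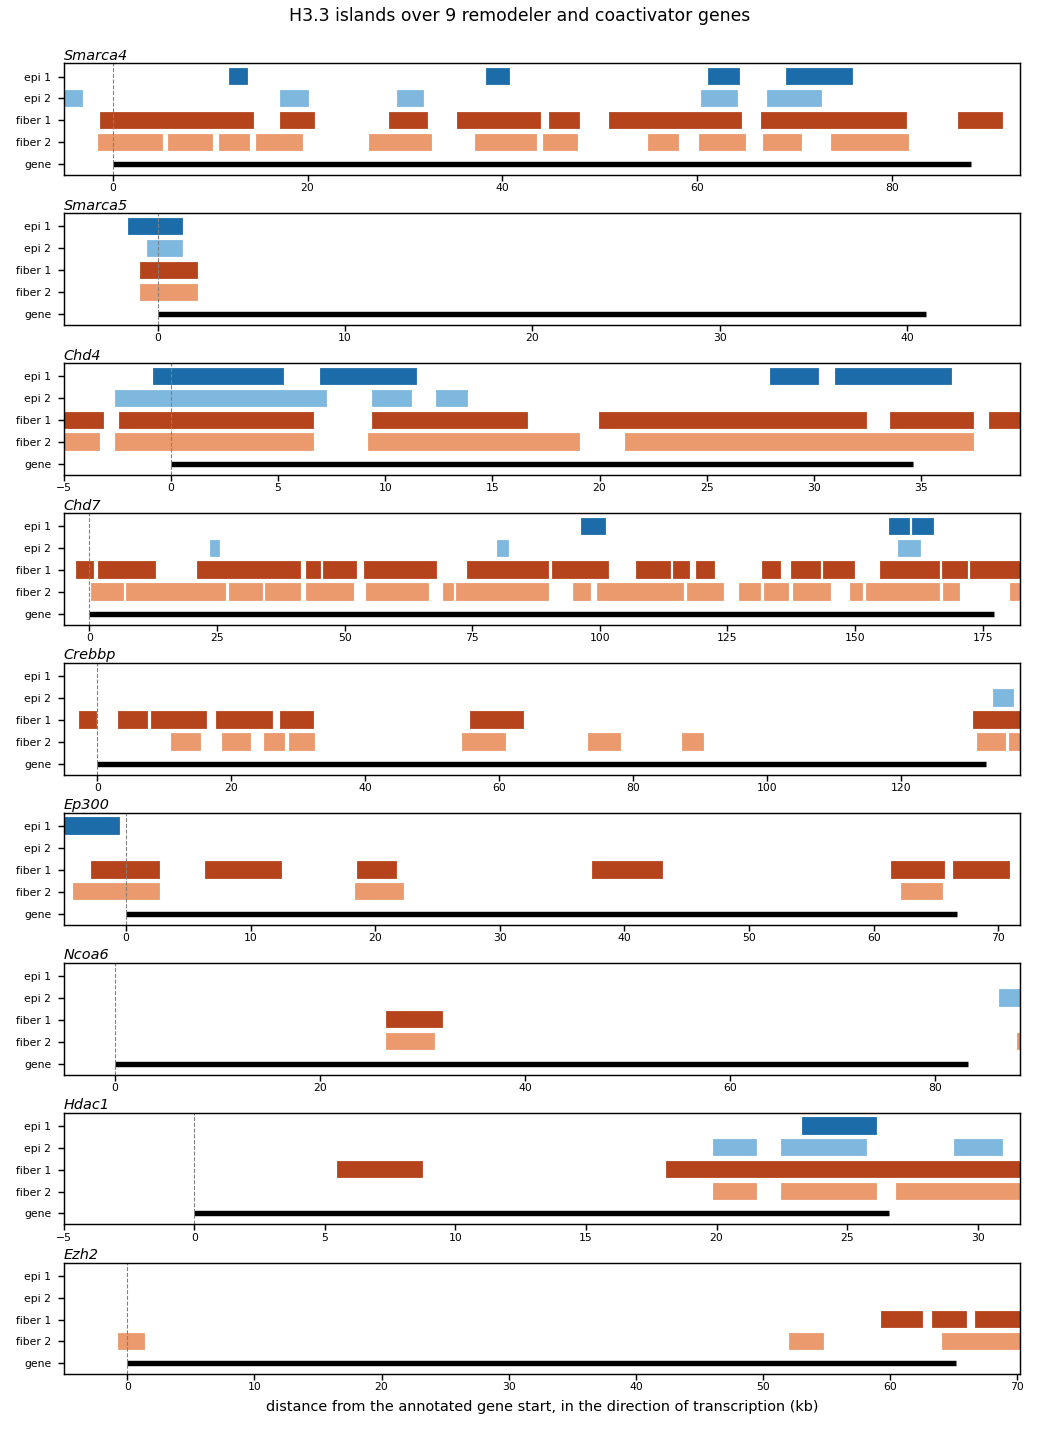
Each panel is 1 gene with its 5 kb flanks, drawn by distance from the annotated gene start in kb along the direction of transcription, with a scale of its own. Coloured bars are the islands of epithelium (epi) replicates 1 and 2 and fiber replicates 1 and 2, clipped at the window, and the black line is the gene body. Chd7 was tiled by 17 and 18 islands in the fiber libraries and held 3 in each epithelium library, whereas Smarca5 held 1 island at its start in every library.

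The annotated starts fell into 3 kinds. Smarca5 and Chd4 had their start inside an island in all 4 libraries, Smarca4 and Ep300 in both fiber libraries and in no epithelium library, and the other 5 genes in 1 fiber library or in none. Thus 2 of 9 starts were covered in all 4 libraries, against 6.16% of all protein-coding genes and 9.56% of those with an island in any library. In both fiber libraries 4 of 9 were covered, against 31.4% and 48.7% in the same order. These counts use the outer start of each gene record, and other transcript starts could differ. Of 6 protein-coding transcript starts of Chd7, 4 lay in islands in each fiber library and 1 in epithelium replicate 1. Of 3 such starts of Smarca4, 1 lay in an island in epithelium replicate 2. The sequences before the annotated starts of Smarca5, Chd4 and Smarca4 are shown. For Ncoa6 the sequence shown lies before a RefSeq start inside the gene, and that before its annotated start was not examined. All are read from RefSeq (GRCm38.p6) 5′ to 3′ along the gene's strand, and capitals mark matches on either strand to the GC box (GGGCGG) or the TATA box (TATAAA). The first 3 end 1 base before the gene record.
Smarca5: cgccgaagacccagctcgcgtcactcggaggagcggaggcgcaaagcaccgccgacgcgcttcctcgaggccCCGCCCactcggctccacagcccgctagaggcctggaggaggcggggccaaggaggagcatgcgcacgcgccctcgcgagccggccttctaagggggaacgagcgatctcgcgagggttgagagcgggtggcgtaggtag
Chd4: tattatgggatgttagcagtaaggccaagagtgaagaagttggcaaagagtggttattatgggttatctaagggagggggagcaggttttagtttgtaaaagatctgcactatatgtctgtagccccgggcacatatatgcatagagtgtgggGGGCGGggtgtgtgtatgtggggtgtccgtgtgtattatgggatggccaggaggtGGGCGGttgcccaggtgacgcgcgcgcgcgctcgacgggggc
Smarca4: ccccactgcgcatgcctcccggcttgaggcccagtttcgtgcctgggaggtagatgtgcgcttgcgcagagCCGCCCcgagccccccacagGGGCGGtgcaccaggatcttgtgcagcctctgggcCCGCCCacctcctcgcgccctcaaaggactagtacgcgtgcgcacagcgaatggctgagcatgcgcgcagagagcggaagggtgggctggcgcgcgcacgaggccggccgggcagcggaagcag
Ncoa6: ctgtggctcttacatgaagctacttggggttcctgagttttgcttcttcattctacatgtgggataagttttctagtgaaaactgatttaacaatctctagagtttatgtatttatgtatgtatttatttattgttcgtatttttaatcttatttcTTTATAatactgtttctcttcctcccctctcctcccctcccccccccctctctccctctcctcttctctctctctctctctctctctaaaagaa

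The Smarca5 sequence lies at chr8:80739498-80739709 on the minus strand, that of Chd4 at chr6:125095731-125095980 on the plus strand and that of Smarca4 at chr9:21615919-21616168 on the plus strand. The Ncoa6 sequence lies at chr2:155440784-155441033 on the minus strand, before a RefSeq start inside the annotated gene body. Over the 250 bases before a RefSeq start, GC content was 69.2% in Smarca5, 54% in Chd4, 70.8% in Smarca4 and 38.4% in Ncoa6, against a median of 52.4% over 32851 promoters. The ratio of observed to expected CpG was 0.974, 0.842, 0.798 and 0.129 in the same order, against a median of 0.374. GC boxes numbered 1, 2, 3 and 0, and Ncoa6 held a TATA box on the reverse strand. The Chd4 values are those of the sequence shown, and Chd4 has a further RefSeq start inside its gene record. The 250 bases before that start had 67.6% GC, 3 GC boxes and a higher CpG ratio than the sequence shown. They too lay in islands in all 4 libraries. A GC box was present in 32.7% and a TATA box in 12.4% of all promoters of this length. These are matches of letters and say nothing of which factors bind.

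CpG-rich sequence before a RefSeq start was found with and without islands, and in Crebbp, Ep300 and Ezh2 that sequence lies inside the annotated gene record. Crebbp had 84% GC and a CpG ratio of 1.08, and its RefSeq promoter was free of islands in all 4 libraries. Ezh2 had 63.6% GC, a CpG ratio of 0.91 and 3 CCAAT boxes (CCAAT, found in 33.8% of all promoters), and its promoter lay in an island in fiber replicate 2 only. That of Ep300 had 73.2% GC and a CpG ratio of 0.761 and lay in islands in both fiber libraries. The table of promoters matched 7 of the 9 genes, and Chd7 and Hdac1 had no entry.

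Smarca4 (ENSMUSG00000032187.16, chromosome 9, 21616169 to 21704230, plus strand, 88.1 kb) encodes Brg1, the ATPase of the BAF and PBAF complexes. Islands covered 13.9% of its window in epithelium replicate 1 and 16.6% in replicate 2, and 68.1% and 54.5% in the fiber replicates in the same order, which holds for all pairs of values that follow. Both fiber libraries were therefore far above both epithelium libraries, though apart from each other too. The difference of the means was 46.1 percentage points ± 8.04 (SD over the 4 pairs of libraries, n = 2 against 2). The start lay inside a fiber island in both libraries, which reached from 1.17 and 1.37 kb before it, and the nearest epithelium islands were 12.0 and 3.17 kb away. The epithelium libraries held 4 and 5 islands and shared 26.2% of the bases covered in either, in the stretch from 60.4 to 75.8 kb, and 92.2% of the bases covered in epithelium also lay in a fiber island.

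Smarca5 (ENSMUSG00000031715.14, chromosome 8, 80698507 to 80739497, minus strand, 41.0 kb) encodes Snf2h, the ATPase of the ISWI complexes that space nucleosomes. In each library 1 island overlapped the window, 2800 and 1800 bp long in epithelium and 3000 bp long in both fiber libraries. Each of these islands lay over the start, and none was found in the rest of the gene. The covered share was 5.49% and 3.53% in epithelium and 5.88% in both fiber libraries, a difference of 1.37 points ± 1.13, not much larger than the spread between the pairs of libraries. The bases covered in all 4 libraries came to 1800 bp, the whole of the shortest island. The epithelium islands held 30.4 and 35.0 reads per kb and the fiber islands 32.7 and 36.3, with overlapping ranges, and in 3 of the 4 libraries this density exceeded that of 85.4% or more of the library's islands.

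Chd4 (ENSMUSG00000063870.12, chromosome 6, 125095981 to 125130591, plus strand, 34.6 kb) encodes the ATPase of the NuRD complex, which joins remodeling to histone deacetylation. It was the most covered gene of the 9 in every library, with 40.3% and 29.1% in epithelium and 79.8% and 82.5% in fibers. The groups did not overlap, with a difference of 46.4 points ± 6.66. In epithelium replicate 2 the islands lay over the first 13.8 kb and the upstream flank, whereas in replicate 1 they also covered the end of the gene, so that the replicates shared 34.8% of their covered bases. The start lay in an island of 6000, 9800, 9000 and 9200 bp in the 4 libraries. The window holds 3.68 kb of the next gene, Nop2, and without it the covered share was 42.8% and 31.8% in epithelium and 80.0% and 86.3% in fibers.

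Chd7 (ENSMUSG00000041235.12, chromosome 4, 8690406 to 8867659, plus strand, 177 kb) encodes a CHD-family ATPase that binds enhancers and is mutated in CHARGE syndrome, in which the eye is affected. It showed the widest gap, with 6.41% and 4.17% of the window covered in epithelium and 72.9% and 75.5% in fibers, a difference of 68.9 points ± 2.01. In kb this was 12.0 and 7.80 in epithelium against 136 and 141 in fibers, and in fibers the covered length was above that of 99.6% and 99.7% of all protein-coding genes. The gene is long, but its covered share in fibers was also above that of 90.8% and 93.3% of genes. The longest island was 4400 and 4200 bp in epithelium and 20000 and 19200 bp in fibers. Epithelium islands of the 2 replicates met in 3400 bp near the end of the gene, inside the island of replicate 2 at 159 to 163 kb from the start, and every base covered in epithelium lay in a fiber island. The start lay in an island in fiber replicate 1 alone, and in replicate 2 the nearest island began 595 bp inside the gene.

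**Figure D2:**
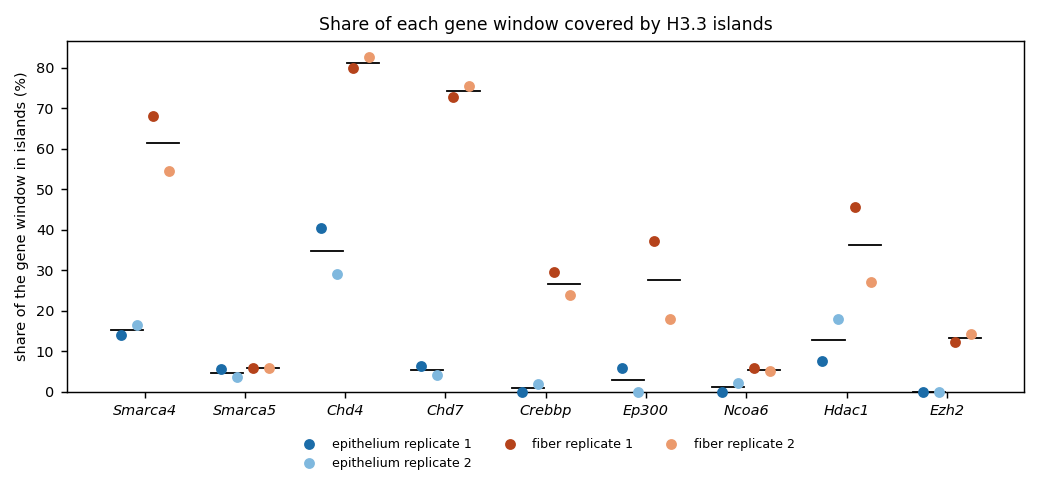
The vertical axis is the share of the gene window covered by islands in percent, from 0, for each of the 9 genes. Points are the 4 libraries and black lines the mean of 2 replicates. The fiber points lie above the epithelium points for every gene, by 68.9 points in the mean for Chd7 and by 1.37 points for Smarca5.

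Among the coactivators, no library of the epithelium had an island in the body of Crebbp, Ep300 or Ncoa6. Crebbp (ENSMUSG00000022521.10, chromosome 16, 4081328 to 4213997, minus strand, 133 kb) encodes the acetyltransferase CBP. Islands covered 0% and 1.96% of its window in epithelium and 29.6% and 23.7% in fibers, a difference of 25.7 points ± 3.58. Its only epithelium island was 2800 bp long and lay beyond the end of the gene, over the start of the neighbour Trap1, a mitochondrial chaperone. In fibers the islands clustered in the first 32.4 kb, at 54.6 to 63.6 kb and over the end of the gene, with 2 more in replicate 2 between 73.4 and 90.4 kb, and the start itself was free of islands in all libraries, with an island of fiber replicate 1 ending 204 bp before it.

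Ep300 (ENSMUSG00000055024.12, chromosome 15, 81585351 to 81652077, plus strand, 66.7 kb) encodes p300, the paralog of CBP. Coverage was 5.80% and 0% in epithelium and 37.3% and 18.0% in fibers, a difference of 24.7 points ± 11.6, and the fiber libraries differed from each other by more than the lower of them differed from either epithelium library. In epithelium the only island, 4600 bp long, ended 551 bp before the start. Both fiber libraries had an island across the start, of 5400 and 6800 bp, and shared 2 further sites at 18.5 to 22.2 kb and 61.5 to 65.6 kb. The islands at 6.45 to 12.4 kb, at 37.5 to 43.0 kb and over the end of the gene were found in fiber replicate 1 only.

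Ncoa6 (ENSMUSG00000038369.14, chromosome 2, 155390656 to 155473894, minus strand, 83.2 kb) encodes a coactivator of nuclear receptors that is a subunit of the MLL3/MLL4 methyltransferase complexes. Both fiber libraries had 1 island inside the gene, at 26.5 to 31.9 and 26.5 to 31.1 kb from the annotated start, all of it intronic and 1.22 and 2.02 kb from the RefSeq start whose upstream sequence is printed above. The covered share of the window was 0% and 2.09% in epithelium and 5.79% and 5.09% in fibers, a difference of 4.40 points ± 1.27. The epithelium bases all lay in the record of the neighbour Trp53inp2, and outside that record the shares were 0% and 0% in epithelium and 6.06% and 5.17% in fibers. The fiber islands of Ncoa6 were thin, with 21.9 reads per kb in replicate 1, above 4.89% of that library's islands.

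Hdac1 (ENSMUSG00000028800.15, chromosome 4, 129516104 to 129542713, minus strand, 26.6 kb) encodes a class I histone deacetylase that belongs to NuRD and other corepressor complexes. Coverage was 7.65% and 18.0% in epithelium and 45.6% and 27.03% in fibers, a difference of 23.5 points ± 12.3. The groups did not overlap, but the replicates of either compartment were far apart. The islands of all libraries lay over the last part of the gene and the flank beyond it, from 18.1 kb onward, with 1 more in fiber replicate 1 at 5.51 to 8.71 kb, and the start was never covered. A single island of 17000 bp in fiber replicate 1 ran over the end of the gene and the neighbour Marcksl1, whose record takes 2.41 kb of the window. Outside that record the shares were 8.19% and 19.2% in epithelium and 41.8% and 22.4% in fibers.

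Ezh2 (ENSMUSG00000029687.16, chromosome 6, 47530139 to 47595341, minus strand, 65.2 kb) encodes the catalytic subunit of PRC2, the Polycomb complex that methylates lysine 27 of histone H3. It was the only gene of the 9 with no island in its window in either epithelium library, and 12.3% and 14.2% were covered in fibers, a difference of 13.2 points ± 1.07. Part of this difference lay in the flanks. Of the gene body alone, 7.76% and 7.67% were covered in fibers, a difference of 7.72 points. In both fiber libraries the islands lay over the end of the gene, from 59.3 and 52.1 kb onward, and into the flank towards Cul1. An island over the start, 2000 bp long and with 45 reads per kb, was found in fiber replicate 2 only. The 2 fiber libraries shared 35.9% of the bases covered in either.

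All 9 genes were higher in both fiber libraries, a result that 45% of all 21938 protein-coding genes and 69.8% of the 14147 genes with an island in any library also gave. The opposite result was given by 1.04% of the genes with an island and by none of the 9. For each of the 9 differences the exact two-sided permutation test over libraries gave p = 0.33, the smallest that 6 splits of 2 against 2 allow. No gene is called by p. The longest island was also longer in both fiber libraries for all 9 genes, against 68.5% of genes with an island. The median difference in covered share was 24.7 points over the 9 genes and 16.0 points over all genes with an island, from medians of 4.51% in epithelium and 27.6% in fibers against 3.91% and 24.2%. Without fiber replicate 1 the median over the 9 genes was 15.1 points.

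When the same number of islands, 10389, was taken from every library, fewer of the 9 genes stayed apart. With the islands of highest density, 5 of 9 genes were higher in both fiber libraries, against 30.0% of genes with such an island, and the median difference was 3.06 points. With the islands of most reads, 7 of 9 were higher, against 45.2%, and the median difference was 12.0 points. Chd7 was higher in both fiber libraries in either selection: with the densest islands, 6.41% and 4.17% of its window were covered in epithelium and 39.4% and 14.02% in fibers. Smarca4 and Chd4 no longer stood apart with the densest islands: Smarca4 had 13.9% and 5.51% in epithelium and 15.9% and 10.2% in fibers, a difference of 3.37 points, and Chd4 40.3% and 29.1% against 48.9% and 24.3%, a difference of 1.84 points.

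The order of the genes differed between the compartments. In fibers Chd4 was followed by Chd7 and Smarca4, each apart from the next, then Hdac1, Ep300 and Crebbp, whose libraries overlapped from 1 gene to the next, then Ezh2, Smarca5 and Ncoa6, again apart. In epithelium Chd4 was apart from all others, Smarca4 and Hdac1 overlapped each other, and of the remaining 6 genes, from Chd7 with a mean of 5.29% to Ezh2 with 0%, each overlapped the next. Chd7 was thus second in fibers, while in epithelium its libraries overlapped those of Smarca5.

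An island in the gene body in both epithelium libraries was found for Smarca4, Smarca5, Chd4, Chd7 and Hdac1, 5 of 9, against 19.8% of all protein-coding genes. The other 4, Crebbp, Ep300, Ncoa6 and Ezh2, had body islands in both fiber libraries and in neither epithelium library, against 15.9%. Those shares stand for 4341 and 3499 genes, all among the 14147 with an island in any library, and gene length was not matched. All 4 ATPase genes of the 9 were among the first group and all 3 coactivator genes among the second. Genes of the same complexes did not keep to this split. The ATPase genes Smarca1 and Chd1 had 0% of their windows covered in both epithelium libraries. The coactivator gene Ncoa3 had 13.7% and 20.7% there. Of the sites that were covered in epithelium in either replicate, 90.6% of the bases lay in an island of a fiber library, against 80.7% over all genes with an island. Replicates shared 26.6% of the bases covered in either library in epithelium and 60.1% in fibers, close to the 26.1% and 53.0% over all genes with an island.

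**Figure D3:**
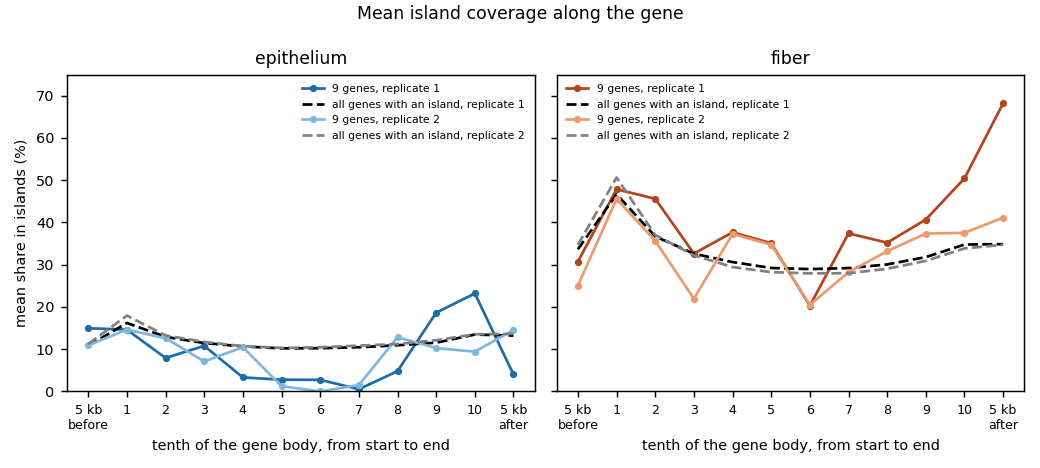
The vertical axis is the mean share in islands in percent, over the 5 kb before the gene, 10 equal parts of the gene body from start to end, and the 5 kb after it, for epithelium (left) and fibers (right). Solid lines are the mean of the 9 genes in each replicate and dashed lines the mean of all protein-coding genes of at least 2000 bp with an island. In fibers the 9 genes were at 20.3% and 20.5% in part 6, the lowest of the 10 parts, between 35.1% and 34.7% in part 5 and 37.4% and 28.2% in part 7.

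Along the gene body, the mean coverage of the 9 genes in fibers was 47.8% and 45.6% in the first of 10 equal parts, 35.1% and 34.7% in part 5, 20.3% and 20.5% in part 6, 37.4% and 28.2% in part 7 and 50.4% and 37.5% in the last. Over all genes with an island the values were 46.7% and 50.6% in the first part, 29.2% and 28.2% in part 5, 29.0% and 27.9% in part 6, 29.2% and 28.0% in part 7 and 34.8% and 33.8% in the last. Part 6 of the 9 genes was therefore below these values, while parts 5 and 7 were above them in both fiber libraries. In the 5 kb beyond the gene end, the 9 genes reached 68.2% and 41.1% in fibers, against 34.9% and 34.7%, and 4.02% and 14.54% in epithelium. That flank holds part of a neighbouring gene in Smarca5 (Frem3), Chd4 (Nop2), Crebbp (Trap1), Ncoa6 (Trp53inp2), Hdac1 (Marcksl1) and Ezh2 (Cul1). The part of these neighbours in the flank values was not tested. The last part of the body held an island in both fiber libraries in 7 of 9 genes, all but Smarca5 and Ncoa6, against 24.2% of protein-coding genes of at least 2000 bp. That share stands for 4922 of 20350 genes, including genes without any island. All 9 genes had a body island in both fiber libraries, as did 10550 of all 21938 protein-coding genes. Beyond the limit of 2000 bp, gene length was not matched.

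Exons and introns were not covered alike in fibers. Exons were covered more than introns in both fiber libraries in 5 of 9 genes and introns more than exons in 3, against 39.2% and 23.8% of the genes with introns and body islands in both fiber libraries, and Chd7 was mixed. In Ep300 53.4% and 36.5% of exonic and 28.9% and 10.6% of intronic bases were covered, in Hdac1 87.7% and 47.3% against 40.3% and 17.2%, and in Ezh2 25.1% and 37.3% against 6.94% and 6.26%. Smarca4 and Crebbp went the other way, with 67.1% and 38.0% of exonic against 71.2% and 60.8% of intronic bases in Smarca4, and 18.9% and 20.96% against 26.9% and 22.5% in Crebbp. In Ncoa6 no exonic base was covered.

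Read density was compared where a gene had islands in every library. An island was present in all 4 libraries in 23.9% of all protein-coding genes, or 5246 of the 14147 with an island, not matched for gene length. It was present in 5 of the 9 genes (Smarca4, Smarca5, Chd4, Chd7 and Hdac1), and these 5 could be compared. None of them was denser in both fiber libraries, against 30.8% of such genes, and 1, Chd7, was denser in both epithelium libraries, against 16.3%. Chd7 had 30.0 and 32.3 reads per kb in epithelium and 27.9 and 28.2 in fibers, a fiber to epithelium ratio of 0.899 (exact permutation p = 0.33). With the same number of densest islands from each library this ratio was 1.01.

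**Figure D4:**
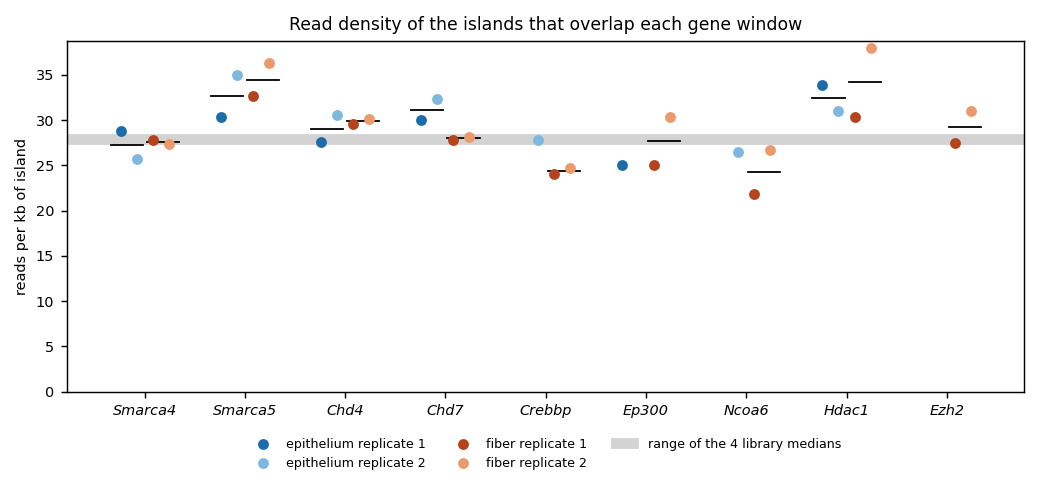
The vertical axis is the number of reads per kb of island, from 0, over all islands that overlap a gene window. Points are libraries, missing where a library had no island, black lines are the mean of 2 replicates, and the grey band is the range of the 4 library medians, 27.4 to 28.3. Smarca5 and Hdac1 lie above the band in all 4 libraries. Among the genes with a point in all 4 libraries, only Chd7 has both epithelium points above its fiber points.

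The remaining densities overlapped between compartments. Smarca4 had 28.8 and 25.7 reads per kb in epithelium and 27.8 and 27.4 in fibers, and Chd4 27.6 and 30.5 against 29.6 and 30.2. Hdac1 had 33.9 and 31.1 against 30.4 and 38.0, and the last value, of fiber replicate 2, was above that of 95.6% of the islands of its library. The median of the 5 ratios was 1.03, against 1.02 over all genes with islands in every library. Crebbp, like the islands inside Ncoa6, was below the library medians in both fiber libraries, at 24.1 and 24.8 reads per kb, above 18.8% and 26.2% of the islands.

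Stretches of 75 nt, the length of a read, that occur more than once in the assembly made up between 0.536% (Ep300) and 4.69% (Hdac1) of the stretches of a window. In islands of Hdac1 the share was 6.47%, and in those of Smarca5 4.97%, against 3.19% and 3.05% outside islands. In islands of the other 7 genes it was between 0% and 1.33%. Its part in the results was not tested.

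Of 9 paralogs of these genes, 6 were higher in both fiber libraries, against 45% of all genes, and among the 7 with an island this compares with 69.8%. Their median difference was 12.95 points. Smarca2, the other ATPase of SWI/SNF, had 0% and 0.873% in epithelium and 20.3% and 9.49% in fibers, while Smarca1, the other ISWI ATPase, and Hdac2 had no island in any library. Chd3, the paralog of Chd4, had 13.3% and 25.8% in epithelium and 49.1% and 36.9% in fibers, and Chd5, a neuronal member of that group, 13.2% and 9.02% against 20.4% and 14.9%. The relatives of Chd7 were all below it in fibers: Chd6 had 0% and 6.99% in epithelium and 11.2% and 21.7% in fibers, Chd8 0% and 3.45% against 14.4% and 17.8%, and Chd9 0% and 2.46% against 17.5% and 23.4%. Ezh1, the other methyltransferase of PRC2, had 24.6% and 0% in epithelium and 26.3% and 19.7% in fibers, so that its groups overlapped. Differences between a gene and its paralog were not tested.

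Genes of the same complexes were mostly higher in fibers as well. Of 87 such genes, 82 had an island, 71 were higher in both fiber libraries and 0 in both epithelium libraries, against 69.8% and 1.04% of all genes with an island, with a median difference of 20.8 points, against 16.0 over the latter. The shares to compare are 45% of all protein-coding genes and 69.8% of those with an island. SWI/SNF gave 21 of 24 genes, all 24 with an island, with a median difference of 35.9 points. NuRD gave 9 of 10, 9 with an island, with 50.5 points. In PRC2 3 of 8 genes, 7 of the 8 with an island, were higher in fibers, with a median difference of 7.38 points. These are counts and medians, and no complex was tested against others.

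**Figure D5:**
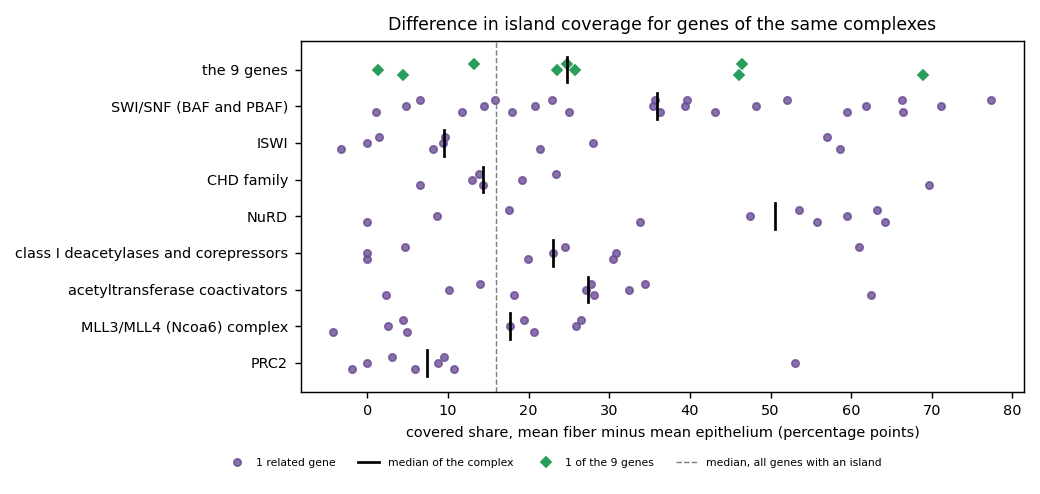
The horizontal axis is the difference in covered share, mean fiber minus mean epithelium, in percentage points. Purple points are 87 genes of 8 complexes, green diamonds the 9 genes, vertical bars the median of each row and the dashed line the median of all genes with an island, 16.0 points. NuRD has the highest median, 50.5 points, and PRC2 the lowest, 7.38 points.

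Within each complex the genes spread widely. In SWI/SNF the largest difference was that of Bcl7b, 77.4 points, and the smallest that of Actl6b, a neuronal subunit, 1.12 points. In the NuRD complex Mta2 differed by 64.2 points and Rbbp7 had no island, and in the corepressor group Rcor1 (CoREST) differed by 61.0 points and Hdac8 had no island. The CHD family ran from Chd2 with 69.6 points to Chd1 with 13.9, leaving the paralogs aside. In ISWI Chrac1 differed by 58.6 points and Pole3 by -3.22, and among acetyltransferase coactivators Ncoa3 differed by 62.5 points and Ncoa1 by 2.38.

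The complexes of Ncoa6 and Ezh2 held genes with little or negative difference. In the MLL3/MLL4 complex Kmt2d, a methyltransferase like Kmt2c of the same list, differed by 26.4 points. Pagr1a differed by -4.19, with 88.9% and 74.0% covered in epithelium and 65.9% and 88.6% in fibers. In PRC2 Jarid2, which helps bring the complex to DNA, differed by 53.0 points, with 0% and 1.88% in epithelium and 57.7% and 50.2% in fibers. Suz12, a core subunit, differed by -1.88 points, and its libraries overlapped.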

How the data were processed

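Islands were analysed in 4 H3.3 ChIP-seq libraries, 2 of lens epithelium and 2 of lens fibers. Per the study's methods, BWA was used by the authors to map single-end 75 nt reads and SICER2 to call islands. The names of the deposited lists, 1 for each library, give mm10 and the caller's settings (false discovery rate 0.01, windows of 200 bp, gaps of 600 bp). Each island has, as deposited, a raw count of reads. Removal of duplicates and use of the input in calling are not given in the sources used here. Library depth is unknown, so no interval was computed.

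Windows were GENCODE M21 gene bodies with 5 kb on each side. Covered share is the part of a window inside islands, and density the reads of overlapping islands divided by their summed length. A gene was called higher in a compartment when both of its libraries lay above both of the other. Members, related genes, paralogs and markers were chosen with earlier results of these data known. Named were the 9 genes, their paralogs, the extremes of each complex and neighbours within a window. Motifs were chosen after the values were seen. Coordinates count from 1. Alternatives varied libraries, windows, islands and density measures. Steps were tested on simulated data, and overlaps of 96 genes were checked with bedtools 2.31.1 (Python 3.11.15, numpy 2.4.6, scipy 1.17.1, matplotlib 3.10.9, numba 0.67.0).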

Additional observations from a re-analysis of the deposited data

How the results depend on the processing

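Of the comparisons of these genes with the alternatives, 81 summary values stayed on their side of the call or within the spread of the replicates, 16 moved and 4 turned direction, and of the values of single genes 165, 35 and 5 did so; the causes were not tested. Taking the 10389 densest islands of every library gave 5 genes of 9 higher in fibers, a median difference of 3.06 points, 2 genes denser in fibers and 36 related genes higher, and the difference was -0.14 points for Crebbp and -0.965 for Ncoa6, with a density ratio of 1.01 for Chd7. Taking the 10389 islands of most reads gave a median difference of 12.0 points, 1 start covered in all libraries and 44 related genes, and -2.75 points for Smarca5 and -1.04 for Ncoa6. Keeping islands at or above the median density of their library gave a median difference of 12.5 points and 1 gene denser in fibers. Bases covered in both replicates, chosen after seeing the data, gave 16.5 points, and so were chosen an island within 1 kb of the start and any annotated transcript start, which left the count of starts covered in all libraries at 2 and 2. Leaving out 1 library at a time gave median differences between 15.1 (without fiber replicate 1) and 32.8 points (without fiber replicate 2), 0 to 2 genes denser in fibers, and median density ratios between 0.978 and 1.05, below 1 without epithelium replicate 1 or without fiber replicate 2. The median density ratio was 0.999 over gene bodies and 0.273 when counts were divided by the library's total in islands, a division by totals that differ between compartments.

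The labels do not say whether libraries with the same replicate number belong together. Deviations of replicate 1 from the compartment means had a correlation of 0.00635 over 14147 genes, which shows no shared deviation but does not settle the pairing. With the replicate number as a block, 9 genes were higher in fibers, all with longer islands, 1 was denser and 74 related genes were higher. With 2 libraries in each compartment and unknown depth, an absent island means that none was called, and the gap of Smarca5 rests on 700 bp of island, few of the caller's windows of 200 bp.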
